A study of Mus musculus with 20 samples.

Results

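The ligands of transforming growth factor beta (TGF-β), their receptors and the family of latent TGF-β binding proteins were followed in plantaris muscle of old mice. The members are the 10 genes named Tgfb1, Tgfb2, Tgfb3, Tgfbr1, Tgfbr2, Tgfbr3, Ltbp1, Ltbp2, Ltbp3 and Ltbp4, picked by gene name from the 22660 genes of the count table. The study asked whether a senolytic treatment changes how old muscle adapts to mechanical overload (MOV), which was produced by cutting away part of the gastrocnemius and soleus so that the plantaris carried the load. RNA from whole plantaris of 20 male C57BL/6J mice aged 2 years was sequenced 14 days after surgery, with 5 mice in each of 4 groups. Vehicle sham mice had the skin opened with no muscle removed and were gavaged with the carrier alone. D + Q sham mice had the same sham surgery and were gavaged with 5 mg/kg dasatinib, a kinase inhibitor, plus 50 mg/kg quercetin, a plant flavonol. Vehicle MOV mice and D + Q MOV mice had the muscle removal and received the same gavages. Gavage was on days 7 and 10 after surgery, although for the sham mice the submitters' texts give day 14 in place of day 10 in 1 passage. All 4 groups shared strain, sex, age and tissue, so nothing here speaks to young muscle or to single cell types. Total counts ran from 17887532 to 26234518 per mouse, with group medians of 19543043 in vehicle sham, 22393065 in D + Q sham, 18647949 in vehicle MOV and 19727134 in D + Q MOV.

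TGF-β is secreted inactive: the mature dimer stays bound to its own propeptide, and in most cells this complex is tethered to the extracellular matrix by a latent TGF-β binding protein. Once integrins, proteases or thrombospondin release it, the ligand binds the type II receptor Tgfbr2, which recruits and phosphorylates the type I receptor Tgfbr1, and Tgfbr1 passes the signal to Smad2 and Smad3 in the cytoplasm. In skeletal muscle the pathway is known for restraining myoblast differentiation and fusion and for driving matrix production by fibroblasts.

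The labelled tissue was visible in every library. All 10 markers of skeletal muscle fibres were detected, led in vehicle sham by Myh4, the fast myosin heavy chain, at a mean of 58291 CPM, the read count scaled to a fixed library size common to every mouse, with sizes corrected by the trimmed mean of M values (TMM). On the first principal component, which held 78.5% of the variance of log2 CPM, sham and MOV mice separated completely. Vehicle MOV replicate 2 lay at -31.4 on it, nearest to the sham mice, while the other MOV mice lay between -73.3 and -49.8.

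MOV raised most of the members, and edgeR called no member for D + Q. Against sham, 8 of the 10 genes rose with MOV in vehicle mice and 8 rose in D + Q mice, by edgeR's quasi-likelihood test at an adjusted p under 0.05 over all genes tested. Both counts hold Ltbp2, which needed the MOV mice to pass the filter on low counts and with vehicle could be called only as higher, and 7 stand without it. Over all genes, 30.7% were higher and 29.8% lower by that rule in vehicle mice, and 34.4% and 30.9% in D + Q mice. The same 8 member genes had every MOV mouse above every sham mouse in both treatments, a pattern found in 46.4% of genes in either direction with vehicle and in 53% with D + Q. The median log2 fold change of the members was 0.99 with vehicle and 0.92 with D + Q, beside -0.02 and 0.02 over all genes tested. In bulk muscle a larger number of expressing cells and more RNA per cell cannot be told apart.

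Scaling bears on the small differences. When libraries were scaled by their totals alone, the median of all genes moved by 0.377 log2 units in the vehicle comparison and by 0.365 in the D + Q comparison, and the share of calls that were higher went from 50.8% to 84.1% and from 52.6% to 83.5%. The TMM values below are therefore changes relative to the bulk of genes. The 8 members that rose did so under every scaling tried, whereas Tgfb2 and Tgfbr1 did not keep their direction.

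**Figure D1:**
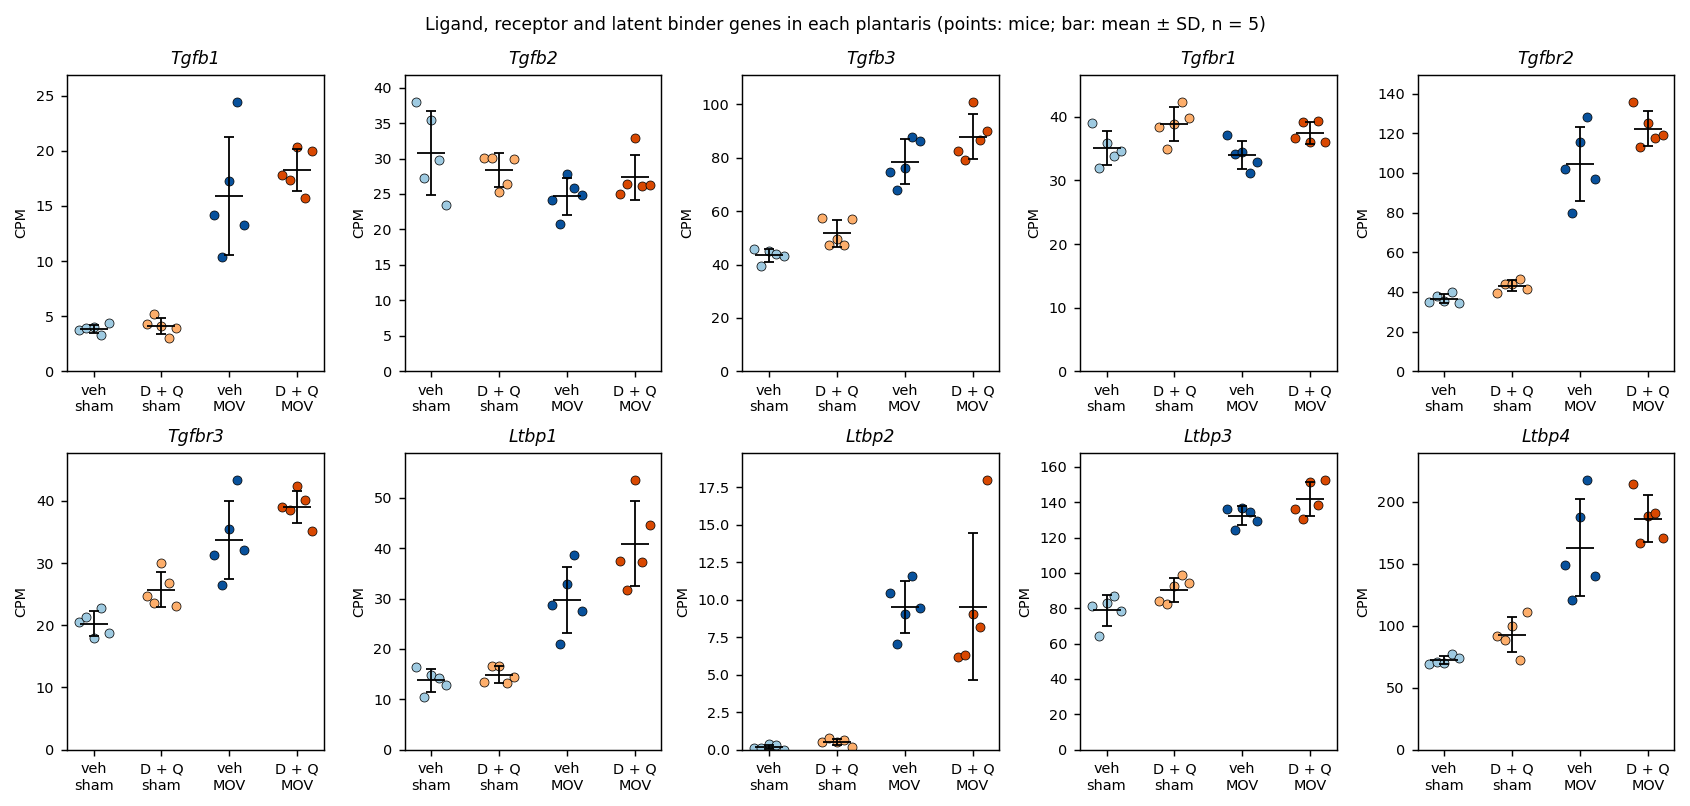
CPM of the 10 genes in each of the 20 mice, with the mean and SD of each group of 5 as bars. Tgfb1 lies between 3.06 and 5.18 CPM in the sham mice and between 10.4 and 24.5 CPM in the MOV mice, while Tgfbr1 stays between 31.2 and 42.4 CPM in all of them.

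Among the ligands, Tgfb1 rose most on a relative scale. Tgfb1 encodes the isoform best known from wound repair and fibrosis. In vehicle sham its level was 3.72, 3.91, 4.02, 3.30 and 4.35 CPM in replicates 1 to 5, and in D + Q sham 4.29, 5.18, 4.09, 3.06 and 3.96 CPM. In vehicle MOV the mice had 14.2, 10.4, 17.3, 24.5 and 13.2 CPM, and in D + Q MOV 17.8, 17.4, 20.4, 15.7 and 20.0 CPM. Every MOV mouse was above every sham mouse, and the vehicle MOV mice were spread widely, with replicate 2 lowest and replicate 4 highest. Tgfb1 rose 4.15-fold with vehicle (95% interval 3.06 to 5.64, edgeR adjusted p = 1.55e-06) and 4.58-fold with D + Q (3.82 to 5.48, adjusted p = 1.18e-10).

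Tgfb3, an isoform known from palate and lung development, was already well expressed in sham muscle and rose by less. Its level was 45.8, 39.5, 44.9, 43.9 and 43.3 CPM in vehicle sham and 57.2, 47.3, 49.5, 47.2 and 57.2 CPM in D + Q sham. With MOV it was 74.7, 67.7, 76.2, 87.6 and 86.4 CPM under vehicle and 82.5, 79.2, 101 (replicate 3), 86.5 and 89.9 CPM under D + Q. The sham and MOV mice did not overlap, and all 5 D + Q sham mice were above all 5 vehicle sham mice. The rise with MOV was 1.81-fold under vehicle (1.61 to 2.04, edgeR adjusted p = 3.66e-07) and 1.74-fold under D + Q (1.56 to 1.95, adjusted p = 5.26e-08).

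Tgfb2, the remaining isoform, did not share the rise under TMM scaling. Vehicle sham mice had 38.0, 27.3, 35.4, 29.8 and 23.4 CPM, and D + Q sham mice 30.1, 30.1, 25.2, 26.4 and 29.9 CPM. Vehicle MOV mice had 24.1, 20.8, 27.9, 25.8 and 24.8 CPM, and D + Q MOV mice 25.1, 26.4, 32.9, 26.1 and 26.2 CPM. The groups overlapped, with the highest values in vehicle sham replicates 1 and 3. With vehicle, Tgfb2 fell by 0.31 log2 units with MOV (95% interval -0.58 to -0.05, edgeR adjusted p = 0.0398, 0.654 at the highest and 0.00716 at the lowest over the other settings and left-out mice), a direction that turned to 0.07 when libraries were scaled by their totals. That call was kept without only 3 of the 10 mice in turn, vehicle MOV replicate 3 and vehicle sham replicates 2 and 5. The adjusted p was 0.116 without vehicle sham replicate 1, 0.102 without vehicle sham replicate 3, 0.0553 without vehicle sham replicate 4, and 0.0958, 0.115, 0.0636 and 0.0840 without vehicle MOV replicates 1, 2, 4 and 5. In D + Q mice the difference was -0.01 log2 units (-0.19 to 0.16, adjusted p = 0.884). Under scaling by totals it was 0.35 with an adjusted p of 0.00255, so that all 10 members were called higher there, against 8 under the other scalings.

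The ligand mix differed between sham and MOV mice, taken as shares within each mouse, a measure that library scaling cannot move. Dividing CPM by the merged exon length of each gene in kilobases (kb) puts genes on one scale, and each gene's part of the summed ligand level was then taken per mouse. Tgfb1 made up 5.46% ± 0.857 (SD, n = 5) of the ligand sum in vehicle sham, 5.32% ± 0.975 in D + Q sham, 13.9% ± 3.14 in vehicle MOV and 14.5% ± 1.01 in D + Q MOV. Tgfb2 went the other way, from 34.9% ± 3.83 and 29.7% ± 1.64 in the sham groups to 17.9% ± 1.42 and 17.6% ± 0.813 in the MOV groups. Neither share overlapped between sham and MOV mice: that of Tgfb1 was 4.33% to 6.84% in sham and 11.2% to 18.7% in MOV mice, and that of Tgfb2 was 28.2% to 39.0% and 16.0% to 19.8%. Tgfb3 was the largest part throughout, at 59.7%, 64.9%, 68.2% and 67.9% in the order of groups above. With the longest transcript as the length, Tgfb1 came to 20.5% in vehicle MOV and 21.3% in D + Q MOV and stood above Tgfb2 at 15.8% and 15.4%, so their order in MOV muscle depends on the length used. No test was run on these shares.

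**Figure D2:**
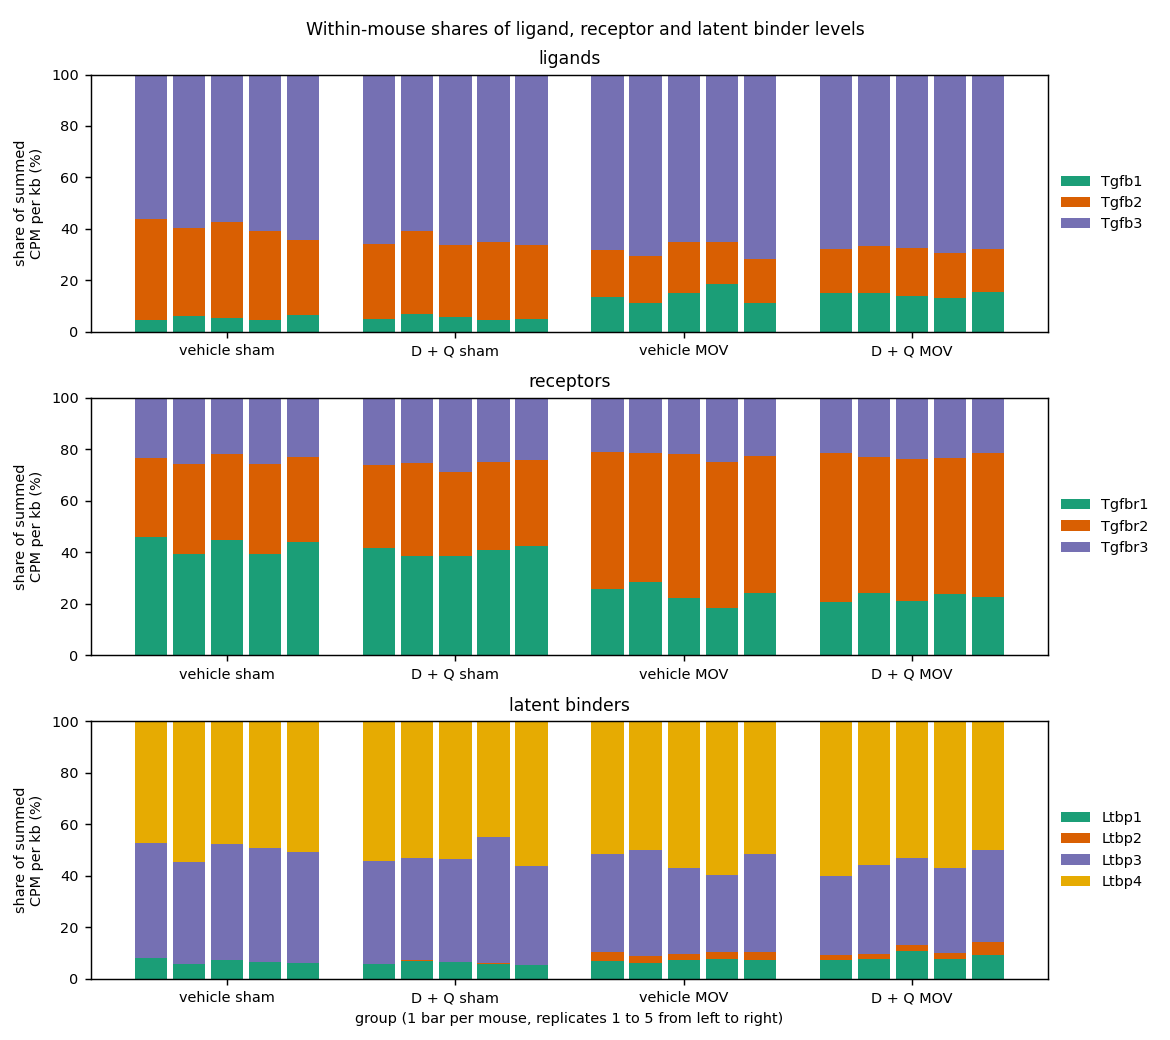
Share in percent of the summed CPM per kb of ligands, receptors and latent binders, with 1 bar per mouse and merged exon length as the length. Tgfb1 and Tgfbr2 take larger shares in the MOV mice (means of 13.9% and 53.9% with vehicle) than in sham (5.46% and 33.5%), and Ltbp2 is visible in the MOV mice alone, at 2.94% with vehicle.

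The stretches just before the annotated start of Tgfb1 and Tgfb2 are shown because these ligands moved apart, beside those of Tgfbr1 and Ltbp2, which had the smallest and the largest change of the members with MOV in vehicle mice under TMM scaling. All are from the GRCm39 genome, read 5′ to 3′ on the strand of the gene: chr7:25386140-25386389 on the plus strand for Tgfb1, chr1:186438295-186438544 on the minus strand for Tgfb2, chr4:47352884-47353133 on the plus strand for Tgfbr1 and chr12:84923307-84923556 on the minus strand for Ltbp2. Capitals mark matches to any of 6 motifs searched on both strands. The windows of Tgfb2 and Ltbp2 also hold exons of the antisense non-coding genes Gm29491 and D030025P21Rik.
Tgfb1: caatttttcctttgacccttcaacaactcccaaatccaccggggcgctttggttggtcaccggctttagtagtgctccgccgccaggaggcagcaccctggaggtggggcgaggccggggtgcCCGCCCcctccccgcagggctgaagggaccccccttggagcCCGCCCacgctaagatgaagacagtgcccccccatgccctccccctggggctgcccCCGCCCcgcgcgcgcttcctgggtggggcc
Tgfb2: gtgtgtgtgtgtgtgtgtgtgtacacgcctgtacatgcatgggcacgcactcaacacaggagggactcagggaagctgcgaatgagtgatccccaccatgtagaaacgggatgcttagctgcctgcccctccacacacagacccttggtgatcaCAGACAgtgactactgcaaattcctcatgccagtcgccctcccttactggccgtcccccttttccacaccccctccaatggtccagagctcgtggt
Tgfbr1: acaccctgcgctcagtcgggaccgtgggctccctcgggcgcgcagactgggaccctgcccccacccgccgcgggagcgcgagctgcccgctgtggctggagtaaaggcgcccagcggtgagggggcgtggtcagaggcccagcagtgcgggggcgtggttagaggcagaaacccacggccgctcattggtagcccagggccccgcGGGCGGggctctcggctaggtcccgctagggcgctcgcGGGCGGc
Ltbp2: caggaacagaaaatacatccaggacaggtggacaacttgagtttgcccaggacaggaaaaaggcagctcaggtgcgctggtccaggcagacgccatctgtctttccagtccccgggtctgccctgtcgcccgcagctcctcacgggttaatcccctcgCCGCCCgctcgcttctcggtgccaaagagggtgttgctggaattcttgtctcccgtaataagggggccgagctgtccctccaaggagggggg

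The motifs were the GC box GGGCGG, the Smad box CAGACA, the Smad palindrome GTCTAGAC, the AP-1 site TGANTCA, the TEAD site CATTCC and the TATA box TATAAA. Of 21757 mouse promoter windows of the same length, 36.3% held a GC box, 15.6% a Smad box, 0.239% the palindrome, 6.18% an AP-1 site, 12.1% a TEAD site and 11.9% a TATA box. Tgfb1 had 3 GC boxes, Tgfbr1 had 2 and Ltbp2 had 1, and Tgfb2 had 1 Smad box. The GC content was 69.6% for Tgfb1, 75.2% for Tgfbr1, 60.4% for Ltbp2 and 56.8% for Tgfb2, beside a median of 53.2% over all windows. A match describes letters in the sequence and shows no binding, and a window without one says nothing of the factor.

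Tgfb1 lies on chromosome 7 from 25386390 to 25404506, Tgfb2 on chromosome 1 from 186354985 to 186438294 and Tgfb3 on chromosome 12 from 86102756 to 86126301. Reads from overlapping genes on opposite strands cannot be told apart where strand was not used in counting, and whether it was is not given in the sources used here. Such overlaps took up 3.43% of the exon bases of Tgfb3 with the protein-coding gene Ttll5 and 9.34% of those of Ltbp2 with D030025P21Rik. Overlaps with further opposite-strand genes, non-coding or unclassified, took up 3.71% of the exon bases of Tgfb2, 3.13% and 6.47% of those of Tgfb3, 0.921% of those of Tgfbr1, 5.04% of those of Tgfbr2 and 4.33% to 6.81% of those of Ltbp4 with each of 3 genes. Tgfbr3 shared 4.34% of its exon bases with the unclassified gene Gm43422 on the same strand, where use of strand would not separate the reads.

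Tgfbr2 rose most of the receptors. Tgfbr2 encodes the type II receptor that binds the ligand first. Its level was 34.9, 37.9, 35.5, 39.9 and 34.7 CPM in vehicle sham and 39.2, 44.1, 44.2, 46.8 and 41.6 CPM in D + Q sham. In vehicle MOV it was 102 (replicate 1), 79.6, 116, 128 and 97.0 CPM, and in D + Q MOV 136, 113, 125, 117 and 119 CPM. Sham and MOV mice were far apart, and vehicle MOV replicate 2 was again the lowest of the MOV mice and lay below all 5 D + Q MOV mice. Tgfbr2 rose 2.87-fold with vehicle (2.44 to 3.38, edgeR adjusted p = 4.94e-08) and 2.90-fold with D + Q (2.64 to 3.19, adjusted p = 4.22e-12).

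Tgfbr1, the type I receptor kinase, gave 39.0, 31.9, 35.9, 33.9 and 34.6 CPM in vehicle sham and 38.4, 35.0, 38.8, 42.4 and 39.9 CPM in D + Q sham. With MOV it gave 37.2, 34.1, 34.5, 31.2 and 33.0 CPM under vehicle and 36.6, 39.2, 36.1, 39.4 and 36.1 CPM under D + Q. The sham and MOV mice overlapped in both treatments. The log2 difference was -0.04 with vehicle (95% interval -0.19 to 0.12, edgeR adjusted p = 0.670) and -0.02 with D + Q (-0.15 to 0.12, adjusted p = 0.837), and scaling by totals turned these to 0.34 and 0.35, with adjusted p = 0.000729 and 6.02e-05 against at least 0.409 under the other settings. Under scaling by totals Tgfb2 and Tgfbr1 still had the lowest values of the members in both treatments.

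Tgfbr3, the co-receptor betaglycan that presents ligand to the type II receptor, ranged from 17.9 to 22.8 CPM in vehicle sham, 23.2 to 30.1 CPM in D + Q sham, 26.5 to 43.4 CPM in vehicle MOV and 35.2 to 42.3 CPM in D + Q MOV. The D + Q sham mice lay above the vehicle sham mice without overlap, and the MOV mice lay above the sham mice of their own treatment. Its rise was 1.67-fold with vehicle (1.41 to 1.99, edgeR adjusted p = 6.39e-05) and 1.56-fold with D + Q (1.40 to 1.74, adjusted p = 7.95e-07).

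Per length, the balance of the receptors turned over. Tgfbr1 held 42.7% ± 3.08 (SD, n = 5) of the receptor sum in vehicle sham and 40.4% ± 1.95 in D + Q sham, against 23.8% ± 3.80 in vehicle MOV and 22.5% ± 1.55 in D + Q MOV. Tgfbr2 held 33.5% ± 1.73 and 33.8% ± 1.65 in the sham groups and 53.9% ± 2.64 and 55.0% ± 2.15 in the MOV groups. Neither share overlapped between sham and MOV mice. The largest receptor by CPM per kb was thus Tgfbr1 in sham and Tgfbr2 in MOV muscle, with either definition of length.

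Ltbp2 showed the largest relative change of the members. Ltbp2 is the family member that does not hold latent TGF-β and is known as a binder of fibrillin microfibrils. It had 2, 2, 6, 5 and 0 counts in vehicle sham replicates 1 to 5 and 10, 13, 10, 13 and 4 counts in D + Q sham. In vehicle MOV it had 260, 136, 193, 265 and 223 counts, and in D + Q MOV 158, 164, 210, 182 and 407 counts. Sham muscle was close to the detection limit in both treatments, and D + Q MOV replicate 5 was more than any other mouse. Pooled over mice and scaled for library size, the MOV to sham ratio was 57.2 with vehicle (95% interval 34.5 to 102.5) and 18.1 with D + Q (13.6 to 24.5), intervals that cover counting error only. The edgeR log2 fold changes were 5.77 (5.03 to 6.51, adjusted p = 8.86e-09) and 4.22 (3.34 to 5.10, adjusted p = 1.67e-06). Every MOV mouse was above every sham mouse in both treatments. In vehicle mice Ltbp2 reached the filter of at least 10 counts in at least 5 mice through the MOV group alone, so it could enter the test only by being higher there, and without any 1 of the vehicle MOV mice it went untested, which left 7 members higher. In D + Q mice 4 of the 5 sham mice had 10 counts or more, so there too the MOV mice were needed.

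Ltbp1, which tethers the latent complex to fibronectin and fibrillin, had 16.4, 10.5, 14.9, 14.2 and 12.9 CPM in vehicle sham and 13.4, 16.6, 16.7, 13.3 and 14.4 CPM in D + Q sham. In vehicle MOV it had 28.7, 20.9, 32.9, 38.6 and 27.6 CPM, and in D + Q MOV 37.4, 31.8, 53.6, 37.2 and 44.6 CPM. All MOV mice exceeded all sham mice, and the D + Q MOV mice reached higher than the vehicle MOV mice while overlapping them. Ltbp1 rose 2.17-fold with vehicle (1.71 to 2.75, edgeR adjusted p = 4.88e-05) and 2.83-fold with D + Q (2.33 to 3.43, adjusted p = 2.55e-07).

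Ltbp3 and Ltbp4 were the most abundant latent binders in every group. Ltbp3, known from bone and tooth growth, ranged from 64.1 to 98.6 CPM over the sham mice and from 124 (vehicle replicate 2) to 153 CPM over the MOV mice. Ltbp4, an organiser of elastic fibres and a known modifier of muscular dystrophy in mice, ranged from 69.2 to 111 CPM in sham and from 121 to 218 CPM in MOV mice. Neither gene overlapped between sham and MOV, and Ltbp4 was lowest in vehicle MOV replicate 2 and highest in vehicle MOV replicate 4 among the MOV mice. Ltbp3 rose 1.69-fold with vehicle (edgeR adjusted p = 1.45e-06) and 1.61-fold with D + Q (adjusted p = 4.72e-08). The rise of Ltbp4 was 2.26-fold (adjusted p = 9.56e-06) and 2.07-fold (adjusted p = 4.6e-07).

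**Figure D3:**
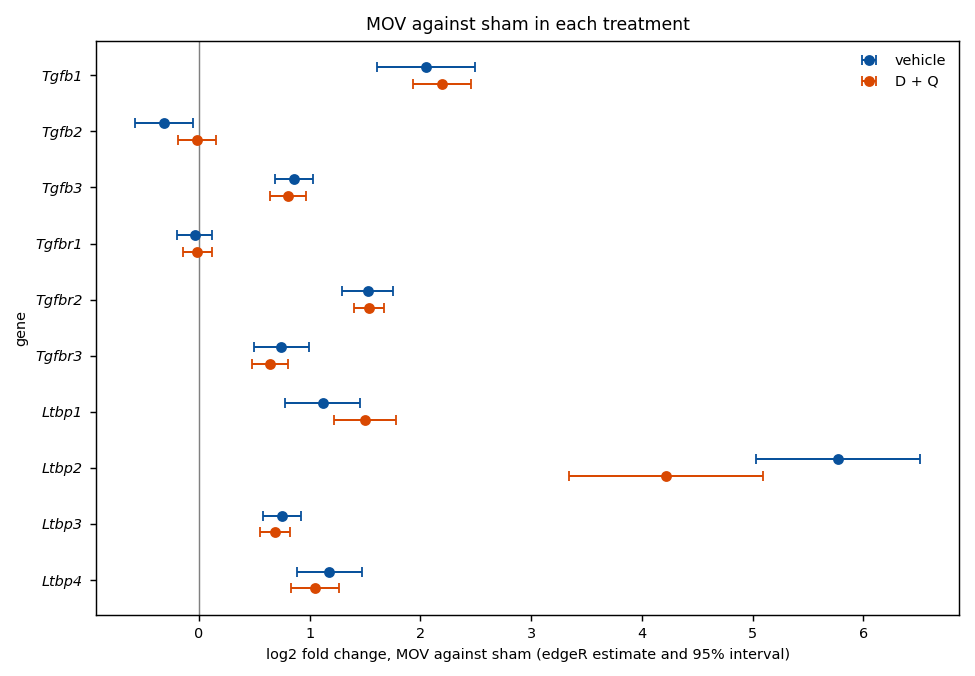
Log2 fold change of MOV against sham for each gene, with the edgeR estimate as a point and its 95% interval as a line, in vehicle and in D + Q mice. The intervals of 8 genes lie above 0 in both treatments, with estimates from 0.64 for Tgfbr3 to 5.77 for Ltbp2, while the estimates of Tgfb2 and Tgfbr1 lie near 0 or below it with TMM scaling and at 0.07 to 0.35 with scaling by totals.

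In vehicle sham the order of levels by CPM per kb was Ltbp4 at 9.61, Ltbp3 at 8.40, Tgfb3 at 8.34, Tgfbr1 at 5.30, Tgfb2 at 4.92, Tgfbr2 at 4.16, Tgfbr3 at 2.96, Ltbp1 at 1.28, Tgfb1 at 0.759 and Ltbp2 at 0.0215. The ranges over mice overlapped for the neighbours Ltbp4 and Ltbp3, Ltbp3 and Tgfb3, Tgfbr1 and Tgfb2, and Tgfb2 and Tgfbr2, and the other neighbours were apart. In D + Q sham the order ran Ltbp4 at 12.3, Tgfb3 at 9.91, Ltbp3 at 9.65, Tgfbr1 at 5.87, Tgfbr2 at 4.91, Tgfb2 at 4.53, Tgfbr3 at 3.75, Ltbp1 at 1.39, Tgfb1 at 0.810 and Ltbp2 at 0.0644. There the first 3 genes overlapped their neighbours, as did Tgfbr1, Tgfbr2, Tgfb2 and Tgfbr3.

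In vehicle MOV the order became Ltbp4 at 21.6, Tgfb3 at 15.1, Ltbp3 at 14.1, Tgfbr2 at 11.9, Tgfbr1 at 5.13, Tgfbr3 at 4.93, Tgfb2 at 3.94, Tgfb1 at 3.13, Ltbp1 at 2.77 and Ltbp2 at 1.16 CPM per kb. All neighbours overlapped there except Tgfbr2 and Tgfbr1, and Ltbp1 and Ltbp2. In D + Q MOV it was Ltbp4 at 24.8, Tgfb3 at 16.8, Ltbp3 at 15.1, Tgfbr2 at 13.9, Tgfbr3 at 5.70, Tgfbr1 at 5.66, Tgfb2 at 4.37, Ltbp1 at 3.81, Tgfb1 at 3.59 and Ltbp2 at 1.17. Apart were Ltbp4 and Tgfb3, Tgfbr2 and Tgfbr3, Tgfbr1 and Tgfb2, and Tgfb1 and Ltbp2. With the longest transcript as the length, Ltbp3 came before Ltbp4 in vehicle sham and before Tgfb3 in the other 3 groups, with ranges apart from Tgfb3 in D + Q sham and vehicle MOV. Tgfb1 then moved ahead of Tgfbr1, Tgfbr3 and Tgfb2 in both MOV groups, and in D + Q MOV Tgfb1 also passed Ltbp1, and Ltbp1 passed Tgfb2. In D + Q sham Tgfb2 passed Tgfbr2.

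Within MOV muscle, D + Q gave no call by edgeR. No member passed the edgeR test, nor did any of the 15238 genes tested (0%), and DESeq2, a second count model, called 0 members and 11 genes in all. At an unadjusted p under 0.05 edgeR had 1340 genes (8.79%) and 1 member, Ltbp1. The members' log2 differences ran from -0.02 for Ltbp2 to 0.45 for Ltbp1, and 9 of the 10 were above 0. For Ltbp1 the 95% interval was 0.09 to 0.80 (edgeR adjusted p = 0.523, from 0.154 to 0.801 over left-out mice and 0.319 to 0.657 over other settings). Tgfb1 differed by 0.18 (-0.22 to 0.58), Tgfbr2 by 0.21 (-0.01 to 0.44) and Ltbp2 by -0.02 (-0.62 to 0.59), the last turning to 0.04 with scaling by totals. Without vehicle MOV replicate 2 the value of Tgfb1 was 0.07 and that of Tgfbr2 was 0.13, and without vehicle MOV replicate 4 that of Tgfb1 was 0.38. No member had D + Q MOV and vehicle MOV mice apart, beside 1.44% of all genes. The test leaves room for differences of the size of these intervals.

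In sham muscle, 9 members could be tested for D + Q and none was called by edgeR, where 30 of 13926 genes (0.215%) were, a number that was 133 with DESeq2 and went from 2 (without D + Q sham replicate 3 or 5) to 74 (without vehicle sham replicate 5) over left-out mice. At an unadjusted p under 0.05 there were 5 members, Tgfb3, Tgfbr2, Tgfbr3, Ltbp3 and Ltbp4, and 1420 genes (10.2%). Ltbp2 had too few counts to be tested. Tgfb3 and Tgfbr3 had all D + Q sham mice above all vehicle sham mice, which held for 2.05% of genes in either direction. Their log2 differences were 0.23 (0.08 to 0.38, edgeR adjusted p = 0.235) and 0.33 (0.15 to 0.51, adjusted p = 0.164). For Ltbp4 the difference was 0.34 (0.15 to 0.53, edgeR adjusted p = 0.174), and DESeq2 called it at an adjusted p of 0.0404, with values from 0.116 to 0.411 under the other settings. Without D + Q sham replicate 4, the lowest of its group at 72.4 CPM, edgeR also called Ltbp4 (adjusted p = 0.0121). Tgfbr2 differed by 0.22 (0.09 to 0.35, adjusted p = 0.179).

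**Figure D4:**
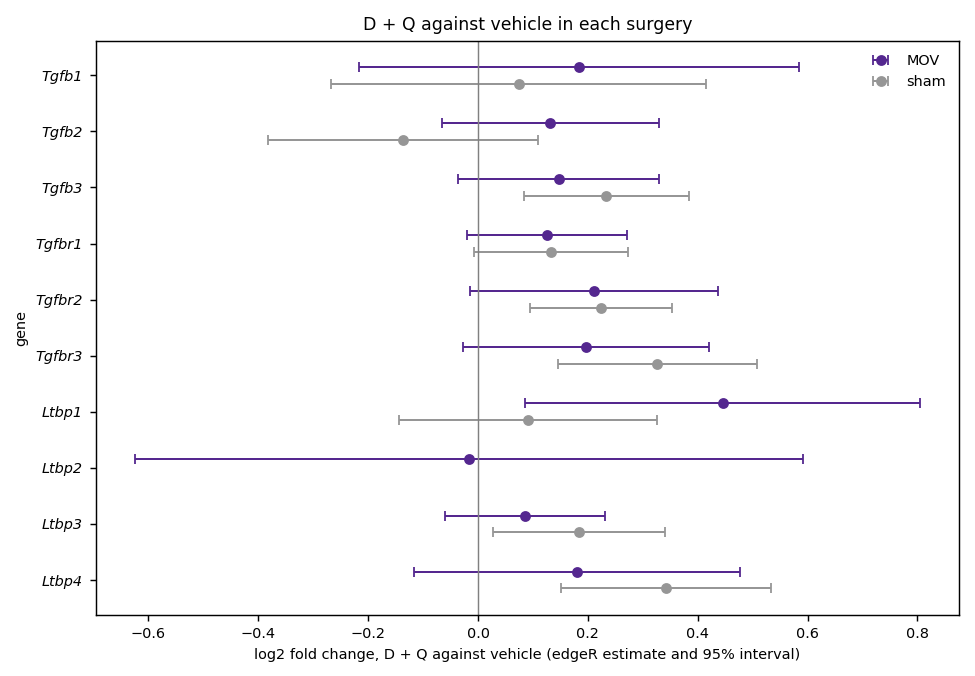
Log2 fold change of D + Q against vehicle in MOV and in sham muscle, with edgeR estimates as points and 95% intervals as lines. No gene is past an adjusted p of 0.05, 9 of 10 points lie above 0 in MOV muscle, and Ltbp2 has no sham point because its counts were too low to test.

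Whether the MOV response itself differed with D + Q was tested as an interaction over all 20 mice. It called 2 of 15700 genes (0.0127%) and no member, and DESeq2 called no member either. With p unadjusted, 897 genes (5.71%) fell below 0.05, among them 1 member, Ltbp2, with -1.59 log2 units (-3.01 to -0.17, edgeR adjusted p = 0.823). That value rests on sham counts close to the detection limit, 15 over the vehicle sham mice and 50 over the D + Q sham mice. The mean of Ltbp2 was 9.52 CPM in vehicle MOV and 9.55 CPM in D + Q MOV. The MOV responses with vehicle and with D + Q are thus given side by side above, and the D + Q comparison within MOV shares its mice with them.

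The genes whose pattern over the 20 mice was nearest to each ligand were sought by the root mean square difference of log2 CPM, each gene centred on its own mean, among 13192 candidates with a mean of at least 1 CPM. For Tgfb1 they were Arpc1b at 0.168, Ccnd1 at 0.176 and Gng10 at 0.182, beside a median of 1.11 over all candidates. Tgfb3 was nearest to Shc1 at 0.104, Ppp1r12c at 0.108 and Cand1 at 0.114, with a median of 0.556. For Tgfb2 the nearest were Stk38l at 0.142, Stat5a at 0.147 and Crtc3 at 0.153, with a median of 0.345. The distance covers sham and MOV mice together, and no test was run on it.

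Most genes that build, hold or activate the latent complex were called higher with MOV, beside 30.7% of all genes with vehicle and 34.4% with D + Q. Of 19 genes of this list found in the table, 15 rose, 1 fell and 3 were not called with MOV in vehicle mice, with a median log2 fold change of 1.96, and 16 rose, 2 fell and 1 was not called in D + Q mice, with a median of 2.00, where the genes that fell were Itgb5 and Mmp9 (1 gene lower with scaling by totals). Fbn2, a fibrillin of developing tissue, had 1, 2, 1, 1 and 0 counts in vehicle sham, so its ratio is given from pooled counts: 365.1 with vehicle (95% counting interval 156.2 to 1126) and 164.1 with D + Q (102.3 to 282.0). Fbn2 reached the filter on low counts through the MOV mice alone in both treatments, so it could be called only as higher. Of the 15 and 16 genes called higher, 13 and 14 would have passed on their sham mice. Without vehicle MOV replicate 2 the vehicle count was 14. The list median with vehicle is the value of Nrros and is the same at either end of that interval. Thbs1, the thrombospondin that can release active ligand, rose by 5.12 and 4.94 log2 units (edgeR adjusted p = 1.27e-06 and 6.65e-07). Fn1, the fibronectin that anchors Ltbp1, rose by 4.33 and 4.04 (adjusted p = 1.04e-06 and 7.32e-06). Itgb5, a subunit of an integrin that can activate TGF-β, was the gene that fell with vehicle, by 0.20 log2 units (adjusted p = 0.0472). That call was lost with DESeq2, with another set of scaling factors (relative log expression), with scaling by totals, and without vehicle MOV replicates 1, 2, 3 or 5 or vehicle sham replicates 1, 3 or 4, each of which left 0 genes lower.

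In sham muscle 2 genes of this list, of 18 tested, were called higher with D + Q, beside 30 of 13926 genes (0.215%) called in either direction. Thbs1 had 5.28, 5.12, 4.59, 5.67 and 6.11 CPM in vehicle sham and 7.22, 11.9, 9.45, 10.1 and 8.99 CPM in D + Q sham. Mmp14, a membrane-bound metalloproteinase, had 10.0, 9.14, 9.82, 12.04 and 12.5 CPM in vehicle sham and 14.0, 20.8, 16.3, 19.0 and 18.4 CPM in D + Q sham. In both genes all 5 D + Q mice were above all 5 vehicle mice, where 2.05% of all genes did not overlap in either direction. Both were named because they passed the test in these same mice, so their separation is no further evidence. Thbs1 rose by 0.81 log2 units (edgeR adjusted p = 0.0199, from 5.19e-05 to 0.511 over other settings) and Mmp14 by 0.71 (adjusted p = 0.0177, from 3.03e-05 to 0.141). Neither was called with all 20 mice in 1 fit, nor without D + Q sham replicates 3 or 5 or vehicle sham replicates 1, 2 or 3, where the adjusted p of Thbs1 was 0.0513, 0.0742, 0.0801, 0.0529 and 0.0616 and that of Mmp14 was 0.0513, 0.0805, 0.0801, 0.0507 and 0.0616.

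Co-receptors and ligand-binding proteoglycans rose as well. With MOV 8 of 11 were higher with vehicle and 9 with D + Q, none was lower, and the medians were 1.15 and 1.08. The shares of all genes called higher were 30.7% and 34.4%. With vehicle 6 of the 8, and with D + Q all 9, would have passed the filter on their sham mice. With vehicle 1 gene was called lower when all 20 mice were in 1 fit and when vehicle MOV replicate 1 was left out. Asporin (Aspn) rose by 4.09 and 4.30 log2 units, biglycan (Bgn) by 3.81 and 3.89, and Cd109, a membrane protein that binds TGF-β, by 3.80 and 3.30, with edgeR adjusted p values between 8.7e-11 and 1.02e-07. With vehicle Cd109 needed the MOV mice to pass the filter, having 20, 15, 8, 10 and 13 counts in sham. Decorin, on this list, is also a fibroblast marker, and fibromodulin is also a tendon marker.

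Smads and their regulators were split between higher and lower calls, as were all genes tested. Over all genes 30.7% were higher and 29.8% lower with vehicle, and 34.4% and 30.9% with D + Q. Among 17 genes, 7 rose and 6 fell with MOV in vehicle mice, and 9 rose and 6 fell in D + Q mice, with medians of -0.00 and 0.21; with scaling by totals these were 9 and 4, 11 and 5, and 0.38 and 0.57. Pmepa1, a feedback inhibitor induced by the pathway, rose by 1.60 and 1.49 log2 units (edgeR adjusted p = 0.000319 and 1.7e-11). Zfyve9, the endosomal anchor that brings Smad2 and Smad3 to the receptor, fell by 1.06 and fell by 0.98 (adjusted p = 1.94e-07 and 5.32e-09). The corepressor Tgif1 rose by 0.94 and 0.65 (adjusted p = 0.00076 and 0.00144), and Skil, another corepressor, by 0.68 and 0.90 (adjusted p = 0.00574 and 6.22e-08).

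All 20 genes in textbook use as TGF-β targets were called higher in both treatments, with medians of 2.96 and 2.79. This list was written with earlier results of these data known. By the same rule 30.7% of all genes tested were higher with vehicle and 34.4% with D + Q. The sham mice alone would have brought 15 of the 20 targets past the filter with vehicle and 16 with D + Q. The other targets needed the MOV mice to be tested at all. Periostin (Postn) rose by 7.81 and 6.66 log2 units (edgeR adjusted p = 2.64e-07 and 2.46e-05), Cthrc1 by 7.73 and 6.36 (adjusted p = 1.71e-07 and 1.06e-06) and Timp1 by 6.05 and 5.13 (adjusted p = 9.22e-07 and 1.14e-07). Cthrc1 and Timp1 are among those that needed the MOV mice: Timp1 had 1, 5, 5, 14 and 4 counts in vehicle sham and 14, 24, 8, 9 and 7 in D + Q sham, and Cthrc1 had 1, 4, 1, 14 and 15 counts and 7, 52, 9, 32 and 27 counts. Of the 20, Col1a1, Col1a2 and Col3a1 are also on the fibroblast marker list, 15% of the targets and 30% of that list. Comp is also a tendon marker. In bulk muscle the rise of none of the 20 can be told apart from a larger number of expressing cells. In MOV muscle D + Q called no gene of the 4 related lists by edgeR and 1 co-receptor gene by DESeq2, and the list medians were 0.22 for latent complex genes, 0.27 for co-receptors, 0.14 for Smads and 0.30 for targets. Without vehicle MOV replicate 2 these medians were 0.12, 0.19, 0.11 and 0.19. In sham muscle edgeR called no co-receptor, Smad or target gene for D + Q, while DESeq2 called 2 co-receptors and 3 targets. The count of co-receptors called was 1 under several other settings, among them scaling by totals, no filter, limma-voom and all 20 mice in 1 fit, and without vehicle sham replicates 4 or 5, and 1 target was called with no filter. The interaction called none of them.

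**Figure D5:**
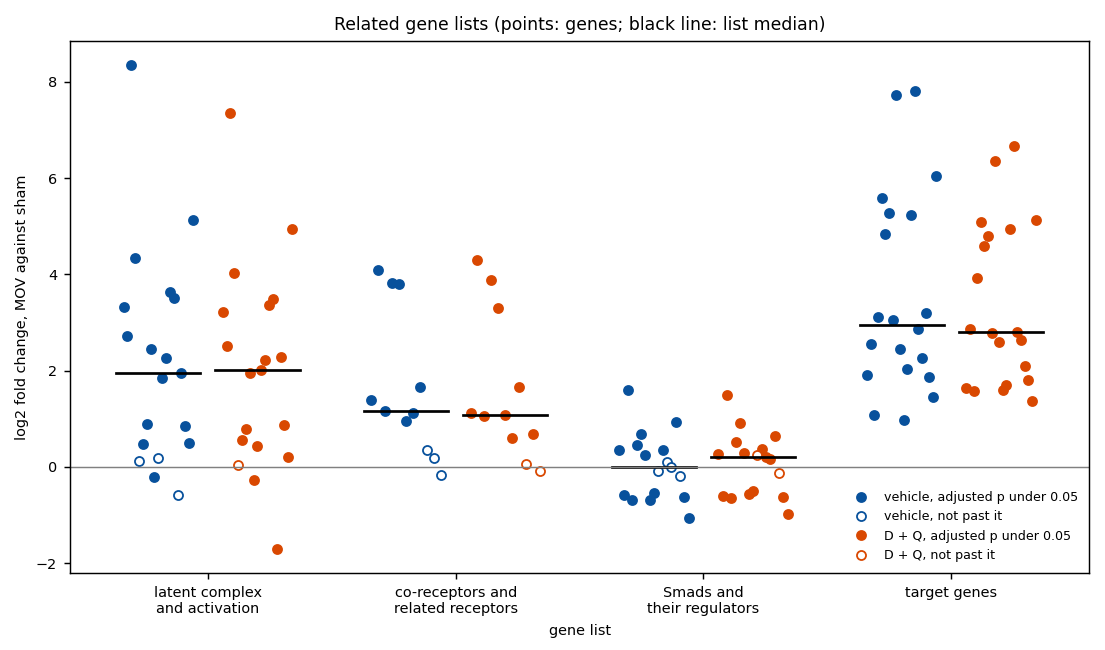
Log2 fold change of MOV against sham for each tested gene of 4 related lists, with filled points for an adjusted p under 0.05, open points for the others and a black line at each median. All 20 target genes lie above 0 in both treatments, and the 17 Smads and their regulators lie on both sides of it.

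Markers of fibroblasts, macrophages and tendon rose with MOV, as most members did. Those of adipocytes had negative medians, and those of mural and smooth muscle cells were mixed. With MOV, 10 of 10 fibroblast markers rose in both treatments, with none at 0 counts. Their summed level was 569, 529.6, 510.0, 747 and 650.1 CPM in vehicle sham and 623, 1328, 865, 835 and 846 CPM in D + Q sham. In vehicle MOV it was 9311, 6174, 10219.9, 12350.2 and 10189 CPM, and in D + Q MOV 12902, 11023, 15266, 12073 and 13641 CPM. Vehicle MOV replicate 2 was the lowest and replicate 4 the highest of the vehicle MOV mice, the same mice that were lowest and highest for Tgfb1, Tgfb3, Tgfbr2, Tgfbr3, Ltbp1, Ltbp2 and Ltbp4. Decorin was the most abundant marker in sham and Col3a1 in MOV muscle. With D + Q all 10 markers had positive values in sham and in MOV muscle, at medians of 0.48 and 0.39, and edgeR called none, where DESeq2 called 1 in sham muscle. Tendon markers were alike for D + Q: all 9 tested in sham and all 10 in MOV muscle were positive, at a median of 0.44 in each. There too edgeR called none, while DESeq2 called 2 in sham and 1 in MOV muscle. The medians in MOV muscle were 0.28 for fibroblast and 0.36 for tendon markers when vehicle MOV replicate 2 was left out.

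Of the macrophage markers, 9 of 10 rose with vehicle and 10 of 10 with D + Q, and none was at 0 counts. Their sum was 62.8, 96.8, 84.8, 164 and 123 CPM in vehicle sham, 71.2, 172, 122, 111 and 109.9 CPM in D + Q sham, 580.4, 310.1, 660.0, 925 and 569 CPM in vehicle MOV and 721, 677, 815, 702 and 727 CPM in D + Q MOV. Lyz2 was the most abundant in all 4 groups. Fibre markers went the other way, with 6 of 10 lower and 1 higher with vehicle and 7 lower and 1 higher with D + Q. Their sum was 200835, 175317, 186519, 184323 and 184329 CPM in vehicle sham, 188405, 188347, 197285, 204534 and 196859 CPM in D + Q sham, 121433, 136348, 112037, 99228 and 126118 CPM in vehicle MOV and 120954, 122829, 99513, 120565 and 101937 CPM in D + Q MOV. With scaling by totals 4 and 3 fibre markers were higher and 6 lower in each. The 1 higher with D + Q was lost (0 higher) with no filter and without D + Q MOV replicates 2 or 5 or D + Q sham replicates 2 or 3.

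Tendon markers rose in 9 of 10 cases in both treatments, from sums of 90.4 to 165 CPM over sham mice to 664 to 1334 CPM over MOV mice, led by Thbs4 in both vehicle groups. Endothelial markers rose in 7 of 10 cases in both, with 1 lower in D + Q mice. Satellite cell markers rose in 7 of 9 with vehicle and 7 of 10 with D + Q, with 1 lower in the latter, and Schwann cell markers in 6 of 10 in both, with 1 lower in D + Q mice. Of the 6 Schwann cell markers called higher, 3 would have passed the filter on their sham mice in each treatment, and of the 9 tendon markers 7 with vehicle and 8 with D + Q. The lower calls in D + Q mice were unsteady. All 3 were lost (0 lower) with scaling by totals. The endothelial call was also lost without D + Q MOV replicates 3 or 4 or D + Q sham replicate 1, and the satellite cell call without D + Q MOV replicates 1, 2, 3 or 4 or D + Q sham replicates 3, 4 or 5. For Schwann cells it was lost with all 20 mice in 1 fit and without D + Q MOV replicates 2, 4 or 5 or D + Q sham replicates 1 or 5, and became 2 without D + Q MOV replicate 3. Mural and smooth muscle markers gave 5 higher and 2 lower with vehicle and 4 higher and 3 lower with D + Q, and 8 higher with vehicle under scaling by totals. Of the 5 and 4 higher, 4 and 3 would have passed on their sham mice. Over all genes 30.7% were higher and 29.8% lower with vehicle, and 34.4% and 30.9% with D + Q. The mural and smooth muscle counts with D + Q lie near those shares.

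Adipocyte markers gave 1 higher and 5 lower of 8 tested with vehicle, and 1 higher and 4 lower of 8 with D + Q. The 5 lower became 2 with scaling by totals and without vehicle MOV replicate 3 or vehicle sham replicate 2, and 3 without vehicle MOV replicate 5 or vehicle sham replicate 4. With D + Q the 4 lower became 7 without D + Q sham replicate 3, and the 1 higher was lost with all 20 mice in 1 fit and without D + Q MOV replicates 1 or 5 or D + Q sham replicates 2 or 3. T cell markers summed to 1.40 to 3.65 CPM over sham mice and 3.95 to 10.9 CPM over MOV mice, with Cd4 at 0 counts in all vehicle sham mice. The T cell markers called higher, 3 of 4 tested with vehicle and 2 of 3 with D + Q, had reached the filter through the MOV mice alone, so they could enter the test only by being higher there, and without any 1 of those mice they went untested. With no filter 8 and 9 were called higher, and with all 20 mice in 1 fit 6 and 5. What part any of these cells had in the members' values was not tested.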

How the data were processed

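The authors aligned the reads to GRCm39 with STAR 2.7.8a and quantified genes in Partek, which gave estimated counts, 1 deposited column per mouse, after leaving out genes under 10 counts. Of the deposited values 28.8% were not whole, and estimated counts were rounded before testing. Members and lists were chosen with earlier results of these data known. Comparisons of 2 groups used the 10 mice concerned, while the interaction used every mouse, with edgeR 4.0.16 (R 4.3.3): TMM factors, genes reaching 10 counts in 5 or more fitted mice, robust quasi-likelihood test, Benjamini-Hochberg adjustment over all genes tested. Fold changes are log2 ratios with 95% intervals. The scripts were tested on simulated data. Alternatives were DESeq2 1.42.0, relative log expression factors, totals alone, no filter, the replicate number as a block, all 20 mice in 1 fit, limma 3.58.1 (voom with quality weights) and each mouse left out. Named genes are all members, and the 3 largest calls per comparison of 4 related lists (latent complex and activation, co-receptors, Smads, targets). Itgb5, Mmp9 and Nrros were named after their values were seen. Markers of 10 cell types were counted (fibre, fibroblast, macrophage, endothelial, mural, tendon, satellite, Schwann, adipocyte, T cell). Positions and lengths are from the GENCODE annotation of GRCm39. The exon overlap of Ltbp3 is not reported here. The labels describe separate animals, and any 2 libraries of a group differed by at least 6.53 times the variance of counting alone. With 5 mice a group, a change has to exceed the spread between mice, and among the named genes depth limits Ltbp2, Fbn2, Timp1 and Cthrc1 most in sham.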

Additional observations from a re-analysis of the deposited data

Results flagged for a closer look

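Of 40 sets of 5 mice (10 genes in 4 groups), 2 had a mouse far from the others by Dixon's criterion, where chance gives about 1 in 20. Tgfb2 was 32.9 CPM in D + Q MOV replicate 3, against 26.4 CPM in the next mouse of that group. Ltbp2 was 18.01 CPM in D + Q MOV replicate 5, against 9.07 CPM in the next. The cause of either was not tested.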

How the results depend on the processing

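Over settings other than leaving out mice, 323 of 333 member log2 fold changes kept their direction and their side of the threshold. Over left-out mice 548 of 585 did. The alternatives for the related lists were added after seeing the data, and there 420 of 432 named values did. Of 2632 list counts, 2544 were taken as unchanged and 88 as moved. Small shifts were taken as unchanged, such as co-receptors called higher with vehicle going from 8 to 11 under totals alone. The number of members lower with MOV in vehicle mice was 1, and 0 with DESeq2, relative log expression factors, totals alone and limma-voom (range without 1 mouse 0 to 1), as Tgfb2 moved to adjusted p = 0.0503, 0.0521, 0.654 and 0.0535. Totals alone turned 6 values: with vehicle Tgfb2 to 0.0720 and Tgfbr1 to 0.34, with D + Q Tgfb2 to 0.35 and Tgfbr1 to 0.35, Ltbp2 for D + Q in MOV to 0.0369 and the Tgfbr1 interaction to 0.0099.

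Genes called for D + Q in MOV muscle were 0, but 11 with DESeq2, and 0 to 2 without 1 mouse (2 without vehicle MOV replicate 4). In sham muscle 30 were called, 133 with DESeq2, 49 with totals alone, 67 with no filter, 19 with all 20 mice in 1 fit and 2 to 74 without 1 mouse. Members higher there were 0, but 1 with DESeq2 and 0 to 1 without 1 mouse. The replicate block gave 2 genes in MOV, 19 in sham and 1 for the interaction, against 0, 30 and 2; same-numbered mice correlated from r = -0.26 to 0.28, so the numbers do not pair them, and the block changed no member's call.

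Without 1 mouse these values crossed 0: Tgfbr1 from -0.0730 to 0.0069 with vehicle and -0.0527 to 0.0169 with D + Q, Tgfb2 from -0.0819 to 0.0213 with D + Q, Ltbp2 from -0.37 to 0.11 for D + Q in MOV, Tgfb1 from -0.0151 to 0.17 for D + Q in sham, and in the interaction Tgfb1 from -0.0263 to 0.31, Tgfbr1 from -0.0531 to 0.0214 and Tgfbr2 from -0.12 to 0.0653. Of 40 levels per length, 31 moved by over 1 SD with the longest transcript, and 22 of 40 shares did. The cause of these changes was not tested. Depth limits Ltbp2 in sham, at 15 counts over the vehicle mice.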
